A study of Drosophila melanogaster with 12 samples.

Results

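The serpins and the immune clip proteases are the inhibitors and the enzymes of the extracellular proteolytic cascades of fly immunity. The 34 genes described here are 27 serpin genes and 7 protease genes, out of 11982 genes that the array names. They were taken by symbol as the genes called Spn followed by a number, together with necrotic (nec), persephone (psh), grass, spirit, SPE, Sp7, easter (ea) and snake (snk), each with its brightest probe set. MP1, the remaining protease among the 8 searched for, had no probe set that could be named here and was not analysed.

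The RNA came from adult Drosophila females aged 7 to 12 days, hybridised to Affymetrix Drosophila Genome 2.0 arrays. The 4 groups, each of 3 pools of 20 flies, were guts and carcasses of nub1 b1 pr1 mutants, called nub1 below, and guts and carcasses of wild type (wt) flies. The carcass is the fly without head and gut, and it holds the fat body. The labels name OregonR and w1118 together as the wt strain, and nub1 is an allele of nub, the gene of a POU-domain transcription factor. The mutant stock carried the markers b1 and pr1 besides nub1, so an effect of nub1 cannot be told apart from one of the stock. All flies were kept in mixed populations of females and males and left untreated. Values are MAS5 signals, with every array scaled to a trimmed mean of 100, and a signal under 10 was taken as too dim to rank. Fold changes and calls of 2-fold refer to log2 of the signal plus 10, unless stated otherwise. That scale understates changes of dim genes.

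Serpins trap a serine protease by offering it a loop to cut, after which both molecules are spent. In the Toll pathway, recognition of fungi or Gram-positive bacteria starts a chain of clip-domain proteases in the hemolymph that ends with SPE, which cleaves Spätzle, the ligand of Toll. A related chain activates prophenoloxidase, the enzyme of melanization, and individual serpins hold both chains in check. In the early embryo the same receptor is served by another chain, in which snk acts on ea.

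Transcripts of other tissues differed between the libraries. The pr probe set, a check on the labels, had 133 ± 6.1 in nub1 carcasses and 335 ± 10.6 in wt carcasses, and 131 ± 5.88 in nub1 guts and 249 ± 15.8 in wt guts (SD, n = 3). The nub probe set had 457 ± 95.8 in nub1 guts and 267 ± 58.2 in wt guts and was under 10 on all carcass arrays. Which nub transcripts it reads was not determined. The 12 measured eggshell genes summed to 119.2, 14880 and 1054 in nub1 guts and to 154.6, 12080 and 20330 in wt guts, against 38110 to 44880 on the carcass arrays. The 10 fat body genes summed to 7909, 11210 and 13870 in nub1 guts and to 20580, 19400 and 15740 in wt guts, without overlap. Yp1, Yp2 and Yp3 made up most of these sums. Of the 10 genes, 5 were lower on every nub1 gut array (Yp1, Yp2, Yp3, FASN1 and AkhR), 0 were higher and 5 overlapped. The 3 spermatheca genes summed to 4253, 4200 and 5992 in nub1 guts and to 651, 691 and 1532 in wt guts, and among them Send1 had 2071 to 3390 in nub1 guts and 429 to 508 in wt guts, and at most 16.7 in any carcass. The 14 accessory gland genes summed to between 49.5 and 97.8 on every array. The 13 gut epithelium genes summed to between 6056 and 10250 in nub1 carcasses and 7287 and 10680 in wt carcasses, against 54510 or more on the gut arrays. The part of these tissues in the results on guts below was not tested, and in pooled tissue fewer cells of a type and less RNA per cell cannot be told apart.

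Of the 34 members, 9 were too dim to be tested in any comparison. These were Spn28B, Spn28Da, Spn28Db, Spn28F, Spn38F, Spn42Db, Spn53F, Spn75F and Spn85F, all of them serpins. Their highest signal on any of the 12 arrays was 11.9, for Spn85F, and the other 8 were under 10 on every array. A gene was tested when all 3 arrays of at least 1 compared group reached 10, which left 25 members in at least 1 comparison.

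In wt flies 8 of the 16 serpins tested and 1 of the 7 proteases were higher in the gut than in the carcass by at least 2-fold. Of 23 members tested between wt gut and wt carcass, 9 were higher in the gut by at least 2-fold at an adjusted p under 0.05, which is 39.1% of them against 17.8% of all probe sets tested. Only snk was lower in the gut by that rule, 4.35% of the members against 21.9%. Of the 23, 6 had passed the filter in only 1 tissue, so their difference was partly set by the filter. All 6 are among the 10 called, namely Spn42Dc, Spn42De, Spn43Aa, Spn47C and Spn100A in the gut and snk in the carcass. The other calls were Spn42Da, Spn55B, Spn88Ea and spirit, out of 17 members that had passed in both tissues.

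The gut serpins showed these contrasts on every array. Spn55B had 910, 980 and 854 in wt guts and 44.7, 34.7 and 31.2 in wt carcasses, amounting to 4.31 on the log2 scale (SE 0.19, adjusted p 1.98e-09). Spn88Ea, an inhibitor that restrains the Toll cascade, had 620, 572 and 596 in wt guts and 214, 220 and 249 in wt carcasses, amounting to 1.35 on the log2 scale (SE 0.11, adjusted p 3.67e-07). The wt tissues did not overlap for either gene.

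Within the run of neighbouring serpin genes from Spn42Da to Spn42De, which follow each other in the RefSeq gene order, the tissues differed from gene to gene. Spn42Da, whose product inhibits furin-like convertases, had 216, 261 and 215 in wt guts and 80.2, 74.2 and 70.8 in wt carcasses (log2 fold change 1.50, SE 0.13, adjusted p 1.04e-06). Its other probe set gave 115, 146 and 128 in wt guts and 124, 121 and 112 in wt carcasses (log2 fold change 0.11, adjusted p 0.312), so the 2 probe sets of Spn42Da disagreed on the tissues. Spn42Dc had 69.3, 72.1 and 62.2 in wt guts and was under 10 on the 3 wt carcass arrays, at least 6.78-fold higher in the gut. Spn42De had 24.2, 22.3 and 23.9 in wt guts and was also under 10 in wt carcasses. Spn42Dd, the serpin that checks the fungal branch of Toll, had 120 ± 10.6 in wt guts and 125 ± 16.8 in wt carcasses (adjusted p 0.754). Spn42Db was among the untested genes.

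A further 3 serpins were higher in the wt gut. Spn43Aa had 65.0, 75.5 and 53.1 in wt guts and no signal above 1.79 in wt carcasses, at least 6.39-fold higher. Spn47C had 52.6, 42.5 and 41.3 in wt guts and 9.53, 10.2 and 8.36 in wt carcasses (log2 fold change 1.52, SE 0.16, adjusted p 3.27e-06). Spn100A was dimmer, with 20.4, 20.4 and 12.4 in wt guts and under 10 in wt carcasses, at least 1.73-fold higher.

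Among the proteases, spirit alone was higher in the wt gut, with 46.5, 31.0 and 42.9 in wt guts and 15.3, 15 and 11.4 in wt carcasses (log2 fold change 1.06, SE 0.20, adjusted p 0.000355). It acts upstream in the Toll cascade. The protease snk had 1.70, 5.01 and 5.05 in wt guts and 28.7, 28.1 and 27.3 in wt carcasses, at least 2.80-fold lower in the gut. Smaller falls in the gut passed the adjusted p for ea (log2 fold change -0.78, adjusted p 1.81e-05), SPE (-0.60, adjusted p 0.0119) and psh (-0.43, adjusted p 0.0395). The serpin nec, which holds back the psh branch of Toll, was lower in the gut as well (-0.77, adjusted p 0.0107), as was Spn43Ab (-0.54, adjusted p 0.00606).

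**Figure D1:**
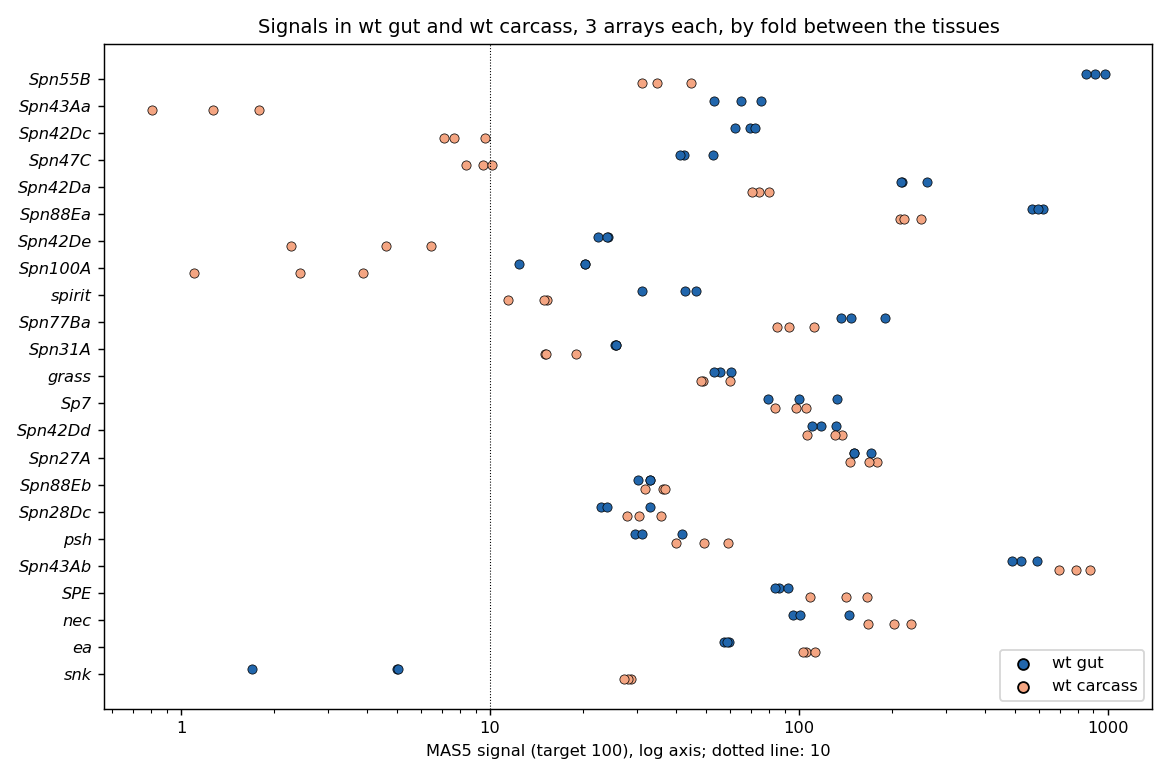
MAS5 signal on a log axis for the 23 members tested between the wt tissues, with 3 wt gut arrays (blue) and 3 wt carcass arrays (orange) per gene and a dotted line at 10. Genes run down the page by fold, from Spn55B, with 854 to 980 in wt guts and 31.2 to 44.7 in wt carcasses, to snk, the gene with the largest fall in the gut among those shown.

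In guts, nub1 changed 5 members by 2-fold or more. Of the 23 members tested, 2 were higher in nub1 guts (8.70%, against 3.15% of all 9782 probe sets tested) and 3 were lower (13.0%, against 6.13%). The serpins Spn77Bc and Spn42Da rose and the serpins Spn43Aa and Spn47C and the protease psh fell. Counting every adjusted p under 0.05 at any fold, 3 members were higher (13.0%, against 14.1%) and 8 were lower (34.8%, against 20.8%). The median log2 fold change of the members tested was -0.26, against -0.06 for all probe sets tested. Of the 23, 5 had passed the filter in only 1 genotype, so their difference was partly set by the filter. They were Spn77Bc in nub1 guts and psh, Spn28Dc, Spn43Aa and Spn100A in wt guts. Spn77Bc, psh and Spn43Aa are among the 5 called, and Spn100A is among the 8 counted lower at any fold.

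Spn43Aa had 1.01, 4.80 and 12.1 in nub1 guts and 65.0, 75.5 and 53.1 in wt guts. The groups lay far apart and only 1 nub1 gut array rose above 10. The log2 fold change was -2.27 (SE 0.22, adjusted p 1.19e-05). In carcasses of both genotypes the gene stayed under 10, as it did in nub1 gut replicates 1 and 2.

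Spn47C had 12.3, 10.2 and 20.3 in nub1 guts and 52.6, 42.5 and 41.3 in wt guts. The highest nub1 array was under the lowest wt array. The log2 fold change was -1.21 (SE 0.16, adjusted p 0.000117). Both serpins are thus among the genes that were higher in wt gut than in wt carcass and lower in nub1 gut. The 2 comparisons share the wt gut arrays, so a high signal on these moves both. The share of all probe sets with both changes is not given here. Of the other 7 members higher in the wt gut, spirit and Spn100A were also lower in nub1 guts, by less than 2-fold, Spn42Da and Spn42De were higher there, and Spn42Dc, Spn55B and Spn88Ea gave no call. Spn55B averaged 852 ± 246 in nub1 guts and 914 ± 63.2 in wt guts (adjusted p 0.577).

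The protease psh, which senses proteases secreted by microbes and starts a branch of the Toll cascade, had 12.9, 5.54 and 12.6 in nub1 guts and 41.8, 29.4 and 31.2 in wt guts. Every nub1 array was under every wt array. The log2 fold change was -1.13 (SE 0.18, adjusted p 0.000475). It was under 2-fold without nub1 gut replicate 2 (-0.95, adjusted p 0.000647), and without that array and wt gut replicate 3, both high in eggshell transcripts (-0.99). Replicate 2 of wt gut, with an eggshell sum of 12080, stayed in that fit. With a pseudocount of 32 in place of 10, psh (-0.64) and Spn47C (-0.75) were under 2-fold at an adjusted p under 0.05.

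Other proteases upstream of SPE moved the same way by less. The protease grass, which carries the signal of peptidoglycan and glucan recognition, had 31.0 ± 1.53 in nub1 guts and 56.5 ± 3.69 in wt guts (log2 fold change -0.70, SE 0.10, adjusted p 0.00035). The protease spirit had 17.6, 28.1 and 21.5 in nub1 guts and 46.5, 31.0 and 42.9 in wt guts (log2 fold change -0.63, SE 0.20, adjusted p 0.0277). Its adjusted p rose above 0.05 without any of 4 gut arrays, nub1 replicates 1 and 3 and wt replicates 1 and 3, at 0.0606 to 0.0962. No gut difference passed the test for SPE, the protease that cleaves Spätzle, which had 82.4 ± 13.1 in nub1 guts and 87.5 ± 4.25 in wt guts (adjusted p 0.751). The 95% interval of its log2 fold change ran from -0.50 to 0.33.

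The remaining proteases in the gut gave no call. Sp7, which activates prophenoloxidase, had 117 ± 12.2 in nub1 guts and 104 ± 27.2 in wt guts (adjusted p 0.423). The embryonic protease ea had 63.4 ± 8.09 in nub1 guts and 58.4 ± 1.24 in wt guts (adjusted p 0.48), and snk was not tested there.

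Spn42Da had the largest rise among the members that reached 10 in both genotypes. Its signals were 530, 438 and 524 in nub1 guts and 216, 261 and 215 in wt guts, amounting to 1.08 on the log2 scale (SE 0.13, adjusted p 9.07e-05). Its dimmer probe set had 247, 231 and 265 in nub1 guts and 115, 146 and 128 in wt guts, amounting to 0.89 on the log2 scale (SE 0.10, adjusted p 4.57e-05). The genotypes were apart on both probe sets, though only the brighter passed 2-fold, and it did not after quantile normalization (0.93). Its neighbour Spn42De was higher as well, with 38.2, 31.8 and 60.2 in nub1 guts and 24.2, 22.3 and 23.9 in wt guts (log2 fold change 0.64, adjusted p 0.017). That adjusted p was 0.0517 without nub1 gut replicate 3 and 0.0518 without wt gut replicate 2. Between these genes in the order, Spn42Dc had 76.1 ± 13.1 in nub1 guts and 67.9 ± 5.13 in wt guts (adjusted p 0.463) and Spn42Dd had 92.6 ± 15.4 in nub1 guts and 120 ± 10.6 in wt guts (adjusted p 0.0664).

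Another 3 serpins were lower in nub1 guts by less than 2-fold on the fitted scale. For the dim Spn100A the ratio of mean signals, nub1 over wt, was 0.272. Spn43Ab had 283, 240 and 354 in nub1 guts and 590, 526 and 490 in wt guts (log2 fold change -0.86, SE 0.15, adjusted p 0.00118). Spn100A ranged from 0.356 to 10.7 in nub1 guts and from 12.4 to 20.4 in wt guts (log2 fold change -0.95, adjusted p 0.00988), and passed 2-fold without nub1 gut replicate 1 (-1.22) or wt gut replicate 3 (-1.10). Spn31A ranged from 11.4 to 21.2 in nub1 guts and from 25.4 to 25.7 in wt guts (log2 fold change -0.45, adjusted p 0.0351), and its adjusted p was above 0.05 without nub1 gut replicate 2 or 3 or any wt gut replicate, at up to 0.0943.

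**Figure D2:**
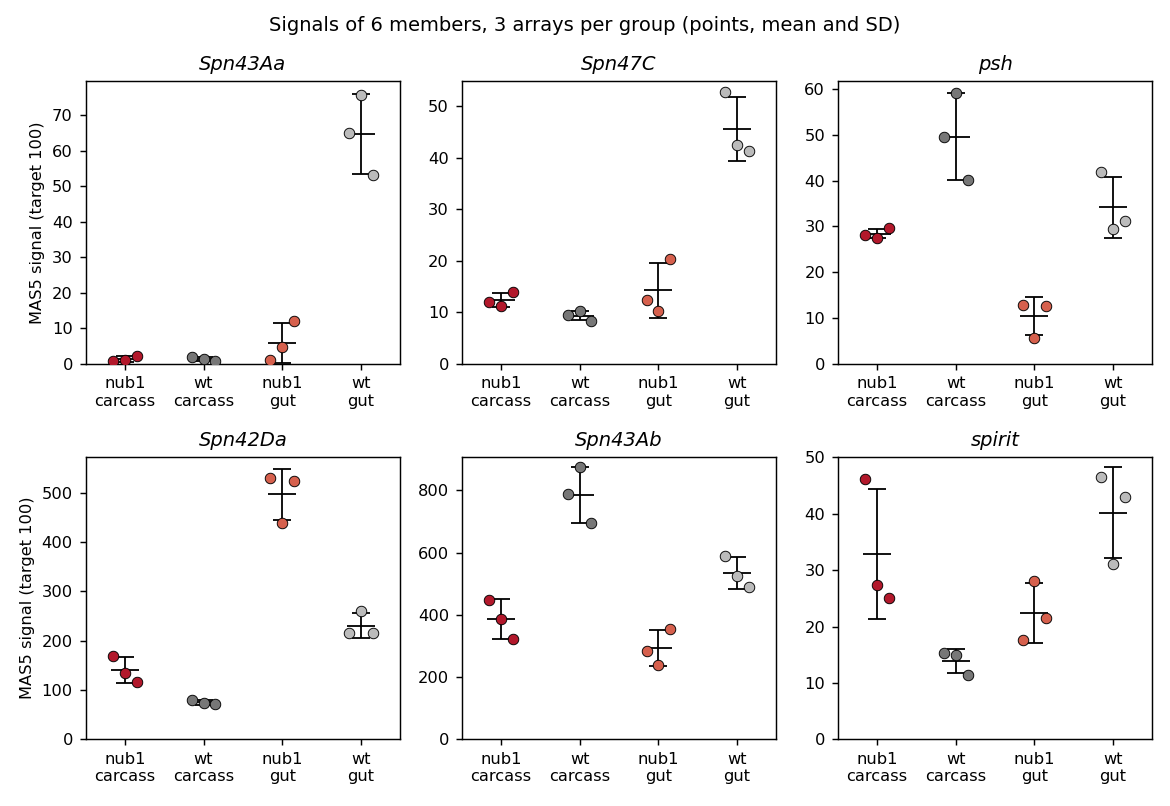
MAS5 signal of Spn43Aa, Spn47C, psh, Spn42Da, Spn43Ab and spirit in nub1 carcass, wt carcass, nub1 gut and wt gut, with points for the 3 arrays and bars for the mean and SD. Spn43Aa and Spn47C were high in wt guts alone, Spn42Da was higher in nub1 than in wt in both tissues, and spirit was higher in nub1 carcasses and lower in nub1 guts.

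The serpins with the best described roles in melanization and Toll control gave no call in the gut. Spn27A, the inhibitor of ea and of the prophenoloxidase cascade, had 182 ± 21.2 in nub1 guts and 158 ± 11.7 in wt guts (adjusted p 0.232). Spn77Ba, which limits melanization in the tracheae, had 128 ± 20.3 in nub1 guts and 158 ± 28.0 in wt guts (adjusted p 0.156). Spn88Ea had 498 ± 73.9 in nub1 guts and 596 ± 24.4 in wt guts (adjusted p 0.0769). Its neighbour Spn88Eb had 37.5 ± 6.91 in nub1 guts and 32.1 ± 1.75 in wt guts (adjusted p 0.674). Spn28Dc, which restrains melanization after injury, had 12.7 ± 5.06 in nub1 guts and 26.7 ± 5.55 in wt guts (adjusted p 0.117). The serpin nec had 107 ± 18.2 in nub1 guts and 114 ± 27.1 in wt guts, and the 95% interval of its log2 fold change ran from -0.61 to 0.45 (adjusted p 0.827). Spn77Ba, Spn88Ea and Sp7 are read by probe sets of a type that can match more than 1 transcript.

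Spn77Bc rose in nub1 guts on arrays that differed widely among themselves. It had 158, 10.4 and 359 in nub1 guts and 3.63, 1.19 and 0.675 in wt guts, at least 8.38-fold higher against a wt signal set to 10. The fitted log2 fold change was 3.20 (SE 0.84, adjusted p 0.012), which depends on the pseudocount, and the methods' t-test did not call it. In carcasses it was at 41.2 in nub1 replicate 2 and under 5 on the other 5 arrays. Replicates 1 and 3 of nub1 gut and replicate 2 of nub1 carcass were thus the 3 arrays well above 10.

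Of the 6 listed genes of the male ejaculatory duct and bulb, Dup99B and Obp51a followed the same 3 arrays and the other 4 did not. Dup99B, a peptide made in the duct and passed to the female at mating, had 444, 9.77 and 781 in nub1 guts and no signal above 4.84 in wt guts. In carcasses Dup99B had 1.33, 86.0 and 5.03 in nub1 and no signal above 7.28 in wt. The odorant-binding protein gene Obp51a had 296, 5.24 and 611 in nub1 guts and no signal above 2.57 in wt guts, and 0.339, 60.7 and 0.394 in nub1 carcasses with none above 0.600 in wt carcasses. The arrays thus stood in 1 order for the 3 genes wherever they exceeded 10. The bulb genes Ebp and EbpII were high on nub1 gut replicate 3 alone, with 7.53, 8.41 and 123 for Ebp and 4.49, 0.151 and 104 for EbpII in nub1 guts, and were under 10 in all carcasses. Gld had 40.9, 27.7 and 46.5 in nub1 guts and 71.6, 44.4 and 55.0 in wt guts. EbpIII had 1059 or more on all 12 arrays and made up most of the sum of the 6, which was 4261 to 7199 in nub1 guts and 4468 to 4603 in wt guts. The spermatheca gene Send2 was also highest among carcasses on nub1 replicate 2, at 50.7 against at most 4.21 on the other 5, and had 1228, 2057 and 2517 in nub1 guts and 139, 118 and 939 in wt guts. The part of duct or spermatheca RNA in the Spn77Bc result was not tested.

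Leaving out nub1 gut replicates 1 and 3 leaves nub1 gut with 1 array, replicate 2, which is assumed to vary like the arrays of the other groups. For Spn77Bc that is the nub1 gut array on which the gene was lowest, and the log2 fold change of 0.79 follows from its signal of 10.4. With nub1 carcass replicate 2 left out as well, the lone array put Spn42Da at 0.90 on the log2 scale and spirit at -0.38 (adjusted p 0.299). Spn43Aa (-2.32), Spn47C (-1.46) and psh (-1.50) were past 2-fold there. That array had the lowest psh of the 3, at 5.54, and the highest eggshell sum of the nub1 guts, at 14880.

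**Figure D3:**
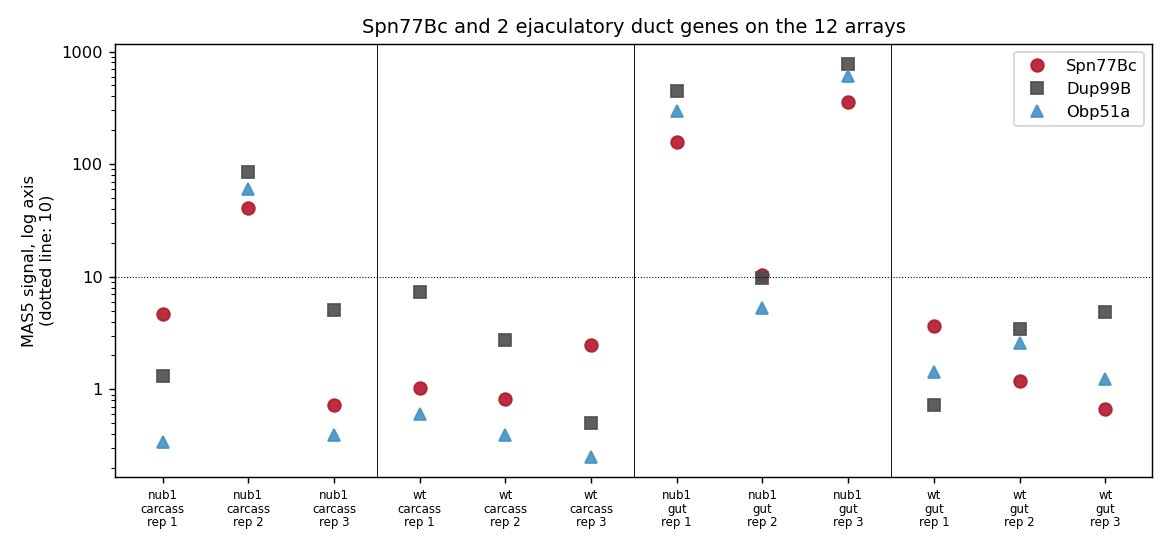
MAS5 signal on a log axis of Spn77Bc, Dup99B and Obp51a on the 12 arrays, with a dotted line at 10. Of the nub1 arrays, gut replicates 1 and 3 and carcass replicate 2 lie well above 10 for the 3 genes, while every wt array lies below 10.

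In carcasses, nub1 moved more members up than down, mostly by less than 2-fold on the fitted scale. Of the 20 members tested, none was higher by 2-fold or more there (against 2.77% of all 8855 probe sets tested by limma) and 1 was lower (5%, against 1.94%). The ratio of mean signals, nub1 over wt, passed 2-fold for Spn88Eb (2.46) and spirit (2.36) and, downward, for Spn43Ab (0.491). At an unadjusted p under 0.05, 9 members were higher (45.0%, against 12.9% of all probe sets) and 2 were lower (10%, against 13.4%), and the methods' t-test with a ratio of at least 2 called 1 higher and 1 lower before adjustment. At an adjusted p under 0.05 and any fold, 6 were higher (30.0%, against 7.76%) and 2 were lower (10%, against 7.70%). That count fell to 2 higher and 1 lower without nub1 carcass replicate 1, where all probe sets fell from 687 higher and 682 lower to 530 and 493. It also fell without each of the other carcass arrays, to 3 or 4 higher and 1 or 2 lower. The median log2 fold change of the members tested was 0.25, against -0.02 for all probe sets tested. Of the 20, 2 had passed the filter only in nub1 carcasses, Spn43Ad and Spn47C, so their difference was partly set by the filter. Spn43Ad is among the 9 counted higher.

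Spn43Ab was the member lower by 2-fold. It had 449, 388 and 322 in nub1 carcasses and 788, 875 and 696 in wt carcasses, amounting to -1.01 on the log2 scale (SE 0.15, adjusted p 0.000747). The groups did not overlap in either tissue, and the fall in guts was given above. It was under 2-fold without nub1 carcass replicate 3 (-0.89) or without wt carcass replicate 2 (-0.93), with adjusted p of 0.00458 and 0.00531, and with a pseudocount of 32 (-0.97). In the RefSeq order Spn43Ab is followed by Spn43Ad and then nec. Spn43Ad had 17.9, 16.1 and 17.5 in nub1 carcasses and 13.9, 12.3 and 1.66 in wt carcasses (adjusted p 0.152), and was under 10 on every gut array.

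The fall of psh in carcasses was smaller than 2-fold. It had 28.2, 27.5 and 29.6 in nub1 carcasses and 49.5, 59.0 and 40.1 in wt carcasses, without overlap (log2 fold change -0.62, SE 0.18, adjusted p 0.0329). Leaving out any of 5 of the 6 carcass arrays raised its adjusted p to between 0.0794 and 0.141, the exception being wt replicate 3. The serpin nec, its inhibitor, had 243, 125 and 124 in nub1 carcasses and 203, 231 and 168 in wt carcasses, and the groups overlapped through nub1 replicate 1. Its log2 fold change was -0.33 (SE 0.24, adjusted p 0.452), and -0.64 (adjusted p 0.0611) without that array, against -0.18 without nub1 replicate 2 or 3 (adjusted p 0.799 and 0.822).

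Of the other proteases, Sp7 and spirit were higher in nub1 carcasses at an adjusted p under 0.05. Sp7 had 175, 172 and 170 in nub1 carcasses and 106, 98.2 and 83.6 in wt carcasses, amounting to 0.79 on the log2 scale (SE 0.15, adjusted p 0.00388). Its nub1 arrays were close together and all above the wt arrays. The protease spirit had 46.1, 27.4 and 25.0 in nub1 carcasses and 15.3, 15 and 11.4 in wt carcasses (log2 fold change 0.81, SE 0.20, adjusted p 0.0144). Its adjusted p was 0.0608 without nub1 carcass replicate 1 and 0.0614 without wt carcass replicate 3. SPE had 275, 175 and 168 in nub1 carcasses and 142, 166 and 109 in wt carcasses, and although the groups did not overlap the change did not pass (log2 fold change 0.52, SE 0.19, adjusted p 0.0935). It was 0.30 without nub1 carcass replicate 1 (adjusted p 0.334). The levels of grass were 50.2 ± 2.29 in nub1 carcasses and 52.3 ± 6.42 in wt carcasses (adjusted p 0.863). Of the embryonic pair, ea had 121 ± 4.58 in nub1 carcasses and 107 ± 4.91 in wt carcasses (adjusted p 0.358), and snk had 33.1 ± 1.45 in nub1 carcasses and 28.0 ± 0.716 in wt carcasses (adjusted p 0.562).

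In all, 4 serpins were higher in nub1 carcasses at an adjusted p under 0.05. Spn42Da had 169, 135 and 117 in nub1 carcasses and 80.2, 74.2 and 70.8 in wt carcasses (log2 fold change 0.81, SE 0.13, adjusted p 0.00134), and its dimmer probe set rose too (0.56, adjusted p 0.00227). Spn88Eb had 140.5, 74.0 and 44.4 in nub1 carcasses and 31.9, 36.4 and 36.9 in wt carcasses (log2 fold change 0.97, SE 0.28, adjusted p 0.0322). Spn55B had 61.4, 64.8 and 67.5 in nub1 carcasses and 44.7, 34.7 and 31.2 in wt carcasses (log2 fold change 0.68, SE 0.19, adjusted p 0.0266). Spn88Ea had 306, 297 and 278 in nub1 carcasses and 214, 220 and 249 in wt carcasses (log2 fold change 0.36, SE 0.11, adjusted p 0.0423). The genotypes did not overlap for these 4 serpins.

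Several of these calls did not hold when single arrays were left out. Over those fits the log2 fold change ran from 0.591 to 0.796 for Spn55B and from 0.315 to 0.421 for Spn88Ea. Spn88Eb had a log2 fold change of 1.32 (adjusted p 0.00259) without nub1 carcass replicate 3 and of 0.59 (adjusted p 0.0756) without nub1 carcass replicate 1, and its adjusted p was above 0.05 without each of the other 4 carcass arrays, at up to 0.104, and at 0.0541 after quantile normalization. Spn55B was above 0.05 without any of 5 carcass arrays, at up to 0.106, and held without wt carcass replicate 1, and was at 0.0735 with a pseudocount of 32. Spn88Ea was above 0.05 without any of 9 of the 12 arrays, at up to 0.153, and at 0.0574 with no trend in the variances. With no filter on low signals Spn88Ea and Spn88Eb were at 0.0756 and 0.0688. Spn42Da and Sp7 remained under 0.05 in every such fit. Spn55B was high in guts, and of the 13 gut epithelium genes 3 were higher on every nub1 carcass array than on every wt carcass array, while 10 overlapped. The 3 were the maltase gene Mal-A1, with 306, 139 and 262 in nub1 carcasses and 2.85, 18.5 and 18.3 in wt carcasses, Jon99Ci, with 173 to 353 in nub1 carcasses and 36.8 to 96.7 in wt carcasses, and Jon25Bi, with 487 to 1175 in nub1 carcasses and 304 to 390 in wt carcasses. The 13 summed to 7996, 6056 and 10250 in nub1 carcasses and 7287, 10680 and 7658 in wt carcasses, a sum that overlapped. In guts 2 of the 13, Mal-A1 and Jon99Ci, were also higher on every nub1 array than on every wt array, 1 (caup) was lower and 10 overlapped. The share of all probe sets without overlap is not given here. The part of gut RNA in the Spn55B result was not tested.

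Replicate 1 of nub1 carcass was the highest of its 3 pools for 14 of the 20 members that reached 10 on all of them (70.0%, against 31.0% of all probe sets that did). Such shares were found in other groups too, with wt gut replicate 1 highest for 15 of 22 members (68.2%, against 36.7%), nub1 gut replicate 3 for 11 of 19 (57.9%, against 26.5%) and wt carcass replicate 1 for 10 of 18 (55.6%, against 35.0%). Among the 14 members highest in nub1 carcass replicate 1 were Spn88Eb, SPE, spirit, nec and Spn28Dc. Spn28Dc had 73.3, 18.4 and 23.9 in nub1 carcasses and 35.8, 30.4 and 27.9 in wt carcasses, so that its array 1 lay above and the other 2 below every wt array (log2 fold change 0.06, 95% interval -0.65 to 0.78). Without array 1 the log2 fold change of Spn28Dc was -0.41 (adjusted p 0.26). The antifungal peptide gene Drs, a target of Toll in the fat body, also peaked there, with 2939, 1446 and 1022 in nub1 carcasses and 247, 437 and 413 in wt carcasses (log2 fold change 2.17, SE 0.32, adjusted p 0.000545). Drs was higher on each nub1 array than on each wt array, whereas nec and Spn28Dc were not. The 9 hemocyte genes summed to 798, 658 and 763 in nub1 carcasses and to 635, 706 and 701 in wt carcasses.

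**Figure D4:**
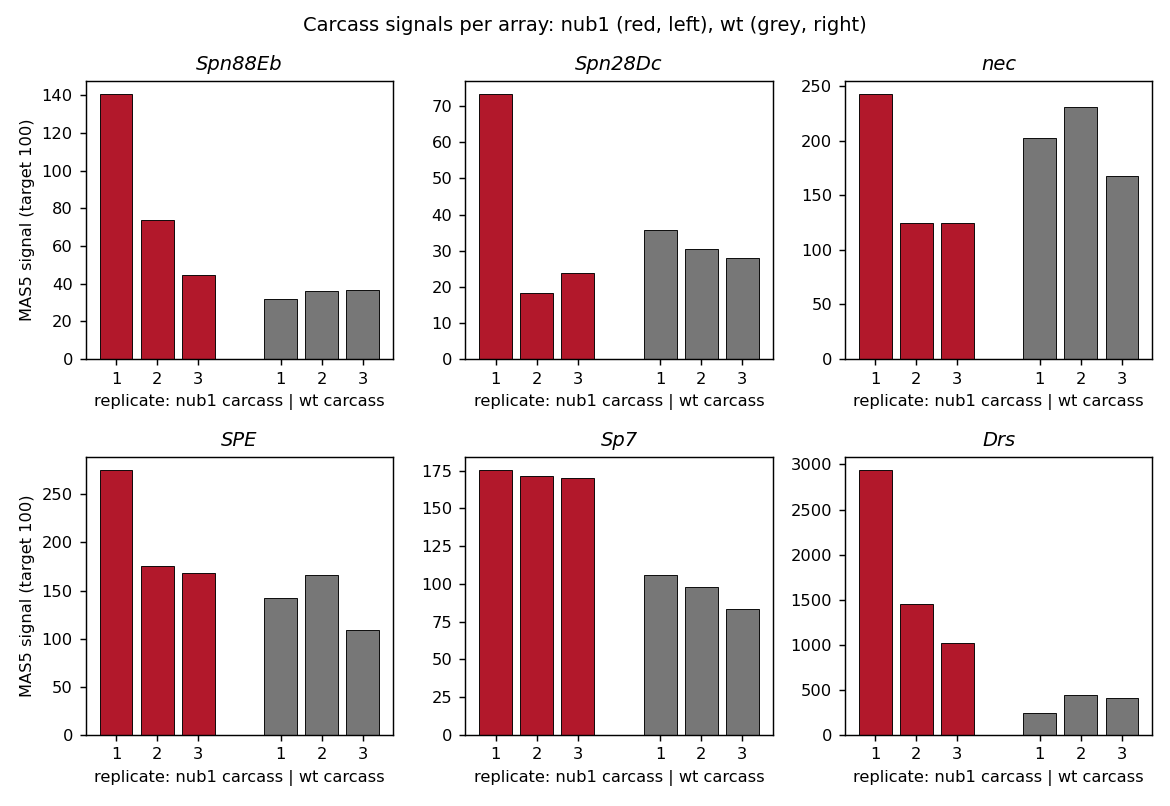
MAS5 signal per carcass array of Spn88Eb, Spn28Dc, nec, SPE, Sp7 and Drs, with nub1 replicates 1 to 3 as red bars on the left and wt replicates 1 to 3 as grey bars on the right. Replicate 1 of nub1 is the highest nub1 bar for the 6 genes, by a wide margin except for Sp7, whose nub1 bars lie between 170 and 175.

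The remaining serpins gave no call in carcasses. Spn27A had 189 ± 18.6 in nub1 carcasses and 165 ± 16.5 in wt carcasses (adjusted p 0.37). Spn42Dd had 159 ± 18.1 in nub1 carcasses and 125 ± 16.8 in wt carcasses (adjusted p 0.147). Spn77Ba had 88.4 ± 3.83 in nub1 carcasses and 96.8 ± 13.6 in wt carcasses (adjusted p 0.728). Spn31A and Spn47C had adjusted p of 0.242 and 0.468. In carcasses 14 members were not tested, all serpins, and among these Spn42De had 9.55, 12.2 and 10.5 in nub1 carcasses and at most 6.46 in wt carcasses.

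By the test of the difference, 3 members differed in the effect of nub1 between the tissues by 2-fold or more, each of them lower in the gut relative to the carcass. This was 12.0% of the 25 members tested, against 6.56% of all 10199 probe sets tested. The median difference over the 25 was -0.62 on the log2 scale, against -0.04 over all probe sets tested. Spn43Aa and Spn100A had passed the filter only in wt guts and Spn43Ad only in nub1 carcasses, which favours a negative difference. Spn77Bc had passed only in nub1 guts, which favours a positive one. The differences of these members, and with them the median, were partly set by the filter. For spirit the effects had opposite signs, with 0.81 in carcasses and -0.63 in guts, and the difference was -1.44 (SE 0.28, adjusted p 0.00591). For Spn43Aa, at or under 2.18 on all carcass arrays, no carcass effect could be measured, and its difference of -2.27 restates the fall in guts. For Spn47C it was -1.42 (SE 0.22, adjusted p 0.00165), with a log2 fold change of 0.21 in carcasses and -1.21 in guts. The carcass signals of Spn47C were dim, at 11.2 to 14.0 in nub1 and 8.36 to 10.2 in wt. With a pseudocount of 32, spirit (-0.89) and Spn47C (-0.85) were under 2-fold.

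At an adjusted p under 0.05 and any fold, 7 of the 25 members tested differed between the tissues (28.0%). The share of all probe sets at that threshold is not given here. Of these 7 members, 4 differed by less than 2-fold. They were Spn31A (-0.75, adjusted p 0.0362), Spn42Dd (-0.68, adjusted p 0.0377), grass (-0.65, adjusted p 0.0134) and Spn88Ea (-0.62, adjusted p 0.0194). For Spn88Ea the effect was 0.36 in carcasses and -0.26 in guts. The changes of Spn43Ab, Spn42Da and psh were not shown to differ between the tissues, with differences of 0.15 (95% interval -0.33 to 0.63), 0.27 (-0.15 to 0.68) and -0.51 (-1.06 to 0.04). The difference for Spn77Bc was 2.39 with an interval from -0.22 to 4.99 (adjusted p 0.214), and 3.59 (adjusted p 0.00489) without nub1 gut replicate 2 and -0.02 without replicates 1 and 3, which leaves 1 nub1 gut array.

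**Figure D5:**
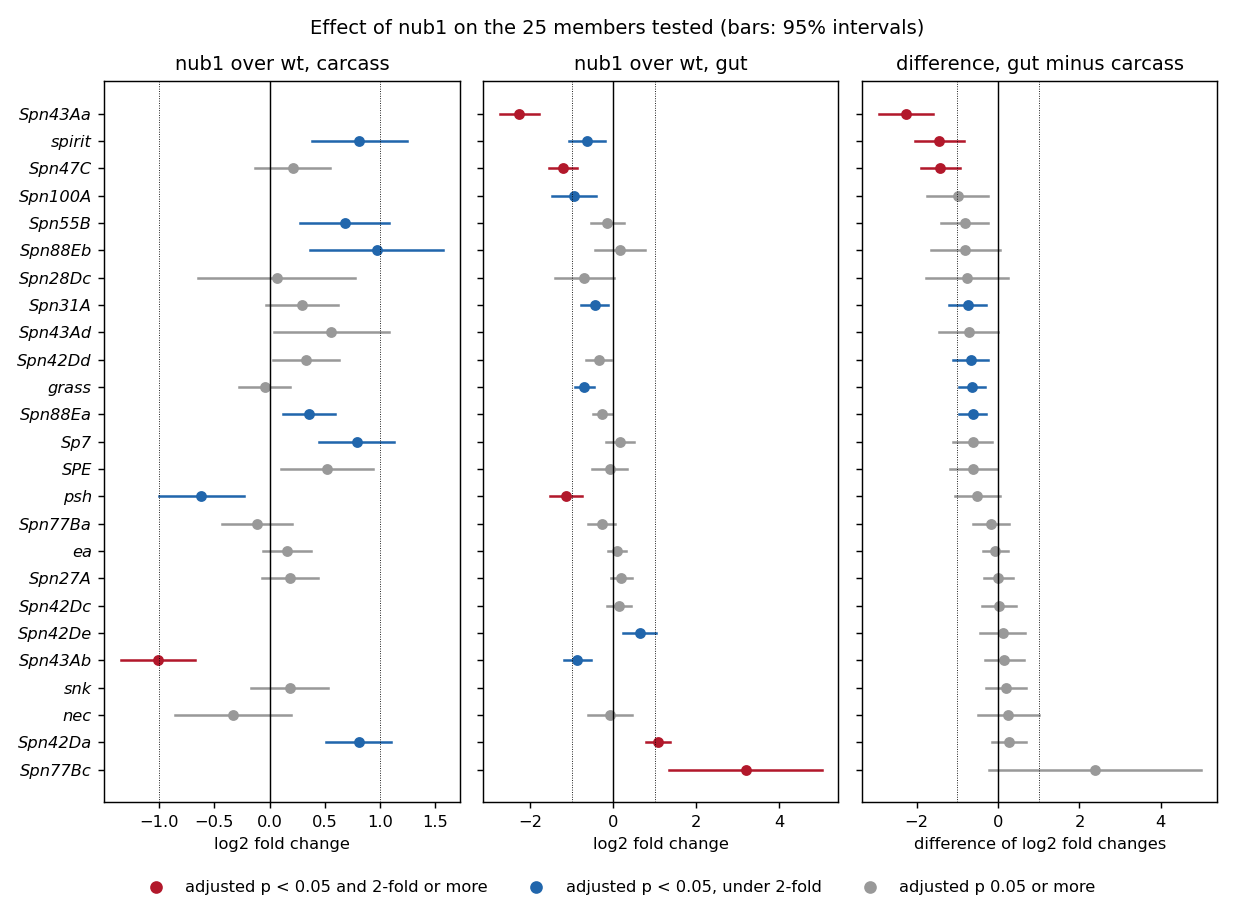
Log2 fold change of nub1 over wt in carcass (left) and gut (middle) and the difference of these effects, gut minus carcass (right), for the 25 members tested in at least 1 panel, with 95% intervals from limma. Most differences lie below 0, and those of Spn43Aa, Spn100A, Spn43Ad and Spn77Bc were partly set by the filter. Those past 2-fold in red are Spn43Aa (-2.27, with no signal above 2.18 in carcasses), spirit (-1.44) and Spn47C (-1.42). Spn43Ab, lower in both tissues, lies near 0.

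The genes around the cascade were counted by list. Of all probe sets tested, 3.15% were called higher and 6.13% lower in nub1 guts. In nub1 carcasses 2.77% were called higher and 1.94% lower. At an unadjusted p under 0.05 in limma the carcass shares were 12.9% higher and 13.4% lower, and those for guts are not given here. Upstream of the proteases, 9 of 14 recognition and cascade genes had a probe set. In guts 2 of 6 tested were lower, namely GNBP3, a sensor of fungal glucan (log2 fold change -1.43, adjusted p 0.000166), and pip, a sulfotransferase of the embryonic pathway (-1.46, adjusted p 0.000114). GNBP3 had 13.8, 14.0 and 18.4 in nub1 guts and 84.0, 46.7 and 49.1 in wt guts. In carcasses none of 7 passed 2-fold by limma, with 0 higher and 3 lower at an unadjusted p under 0.05. GNBP3 was at -0.94 there (adjusted p 0.00518).

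From the receptor Toll to its transcription factors, none of 9 genes changed by 2-fold in either tissue by limma. At an unadjusted p under 0.05, 2 were higher and 2 lower in guts, and 1 was higher and 5 lower in carcasses. Of 10 measured effector genes of Toll, 5 were lower in nub1 guts and none was higher by limma, with 0 higher and 6 lower at an unadjusted p under 0.05, and Drs in the gut had 7722, 5998 and 7353 in nub1 and 6321, 6473 and 5582 in wt (adjusted p 0.666). The 5 were the Bomanin genes BomS4 (-1.70), BomBc2 (-1.51), BomS6 (-1.50), BomBc3 (-1.41) and BomT3 (-1.35), which encode short peptides secreted by the fat body. Their falls stood beside the lower sum of fat body genes in nub1 guts, given above. Of those 10 fat body genes 5 were lower and 5 overlapped, and their part was not tested. In carcasses Drs was higher and the other 9 did not change by 2-fold, though BomS4 was lower at -0.96 (adjusted p 0.00278).

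Of the melanization enzymes, 1 of 7 tested was lower in nub1 guts (fon, a clotting factor, -1.03, adjusted p 0.00177) and none of 9 changed by 2-fold in carcasses by limma, where 1 was higher and 3 lower at an unadjusted p under 0.05. PPO1 and PPO2, the prophenoloxidases that the cascade of Sp7 activates, had log2 fold changes of 0.30 and 0.52 in carcasses (adjusted p 0.449 and 0.167). Among 15 measured further clip-domain and immune protease candidates, CG4998 was lower in guts (-2.95, adjusted p 1.62e-05), with 5.43, 16.8 and 6.5 in nub1 guts and 141, 176 and 103 in wt guts. CG14990 had no signal above 8.21 on any nub1 array and was at least 2.42-fold lower in nub1 guts (adjusted p 0.0011) and at least 3.23-fold lower in nub1 carcasses (adjusted p 0.000204). No other candidate of the 7 tested in each tissue changed by 2-fold.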

How the data were processed

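Expression in nub1 and wt females was read from 12 arrays, 1 for each pool of guts or carcasses. The deposited values are intensity values on a linear scale, MAS5 signals that the authors made in Affymetrix Expression Console. Each array has a mean of 100 once 2% of probe sets is trimmed from either end. Median signals were 7.81 to 14.9 per array. Precision is limited by the 3 arrays per group.

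Of 18952 probe sets, 183 controls were left out. Platform names were brought to present symbols through RefSeq (Release 6 names) for 13544 and kept for 103, while 402 probe sets had several genes and 4720 none. One item is not reported here. Sequences and coordinates were not used here.

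For the fit, log2(signal + 10) was taken and limma 3.58.1 in R 4.3.3 was run with 4 groups in 1 model (8 residual and 3.66 prior degrees of freedom). Fold changes are on that scale, which understates changes of dim genes. Benjamini-Hochberg adjustment ran over all probe sets tested. A gene was called changed at an adjusted p under 0.05 and 2-fold. The count at any fold was added after seeing the data. Where a group was under 10 on all its arrays it was set to 10 and the fold is a lower bound. The scripts were tested on simulated data. Tables were handled with Python 3.11.15 and pandas 2.3.3.

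Members and gene lists were chosen with earlier results of these data known. Per-array values are given for members with a changed call or difference and for others on which a sentence turns, chosen after their values were seen. Other members are given by mean and SD or by range. Alternatives covered the pseudocount, filter, normalization, variance trend, replicate block, arrays, probe set, groups fitted and the methods' t-test (2-sided, equal variances, linear signals).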

Additional observations from a re-analysis of the deposited data

Results flagged for a closer look

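In 7 of the 25 members tested (28.0%) the test of the difference between the effects of nub1 in gut and carcass passed in limma. Adjustment ran over all probe sets tested, and the share of all probe sets that passed at any fold is not given here. For 1 of them, Spn43Aa at -2.27, the carcass signals were all at or under 2.18, so no carcass effect could be measured and the value restates the fall in guts. The differences of the other 6, gut minus carcass on the log2 scale, were -1.44 for spirit, -1.42 for Spn47C, -0.75 for Spn31A, -0.68 for Spn42Dd, -0.65 for grass and -0.62 for Spn88Ea. Without single arrays, Spn31A was above an adjusted p of 0.05 in 8 fits, Spn42Dd in 7 and Spn88Ea in 2, at up to 0.092, 0.0941 and 0.0521, while the other 4 stayed under it in every such fit.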

How the results depend on the processing

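With a pseudocount of 32 in place of 10, changed members numbered 0 against 1 in carcasses, 3 against 5 in guts, 1 against 3 for the difference between tissues and 5 against 10 between wt tissues, and changed probe sets numbered 230 against 417, 549 against 908 and 403 against 669 for the first 3 comparisons. With a pseudocount of 1, 3 members changed in carcasses. The methods' t-test called 2 members in carcasses unadjusted, and 3 members and 539 probe sets in guts adjusted. Without nub1 gut replicates 1 and 3 and nub1 carcass replicate 2, 5 members and 1070 probe sets differed between the tissues, and 6 and 1042 without the 2 gut arrays alone, a setting added after seeing the data. Both settings leave nub1 gut with 1 array, which is assumed to vary like the other groups. Leaving out 1 array at a time gave 0 to 1 members in carcasses (0 without wt carcass replicate 2), 4 to 6 in guts, 3 to 4 for the difference and 9 to 10 between wt tissues. The difference between tissues for Spn77Bc, which did not pass the test, was -0.021 without the 2 gut arrays, the carcass value of Spn28Dc, not called either, was -0.412 without nub1 carcass replicate 1 and up to 0.365 without the other arrays, and no other value changed sign. Of the values of single genes, 586 kept their side of the thresholds, 118 lost it and 18 gained it.

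Replicate numbers were not used to pair the samples. Deviations of same-numbered arrays correlated between -0.35 and 0.33. Differently numbered arrays were not set beside them, so these values cannot settle whether samples were paired. With the replicate block the changed members stayed at 1, 5, 3 and 10, and the changed probe sets were 414, 906, 648 and 3962 for carcass, gut, their difference and the wt tissues. At an adjusted p under 0.05 and any fold, the block gave 4 members higher in nub1 carcasses in place of 6, with Spn88Ea at 0.0528 and Spn88Eb at 0.051, and 2 lower as before. Signals under 10 limit what can be said of the 9 untested serpins.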
